A study of Mus musculus with 14 samples.

Results

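The later phase of culture activation of mouse hepatic stellate cells (HSCs) was read by comparing control cells at 64 h with control cells at 16 h of culture. The members were chosen by the sample titles alone: 3 control arrays at 64 h (Ctrl64h) and 2 control arrays at 16 h (Ctrl16h), 5 of the 14 arrays of the study. All were primary HSCs of BalbC mice (Balb/cByJ in the methods of the paper), isolated on a Nycodenz gradient and kept in DMEM with fetal bovine serum. Unattached cells were washed away 2 h after seeding, and the time in culture was counted from that wash. Neither group received valproic acid (VPA), the histone deacetylase inhibitor given to 6 of the other arrays, and 3 control arrays at 4 h (Ctrl4h) give the level before the earlier interval. The paper describes the arrays of a group as separate HSC isolations. Cells on plastic in serum are a culture model of activation, without the other cells of a damaged liver.

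Quiescent HSCs store vitamin A as retinyl esters in lipid droplets and surround the sinusoids of the liver. On plastic they lose these droplets, spread, build contractile fibres, secrete fibrillar collagen and enter the cell cycle, and so come to resemble the myofibroblasts of a scarring liver. The comparison asks which genes still move once the first hours after isolation have passed.

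RNA was measured on Affymetrix Mouse Gene 1.0 ST arrays, and each value is a log2 level after RMA, a method that corrects background, gives all arrays the same distribution and joins the probes of a gene. A difference of 1 is therefore 2-fold, and all changes are relative to the other RNA of the same array. A gene was said to have risen or fallen where limma's moderated test, fitted over all 14 arrays, gave an adjusted p under 0.05 (Benjamini-Hochberg) together with a change of at least 2-fold. Of 19938 genes measured by a probe set with 1 gene symbol, 886 rose (4.44%) and 202 fell (1.01%). With no limit on the fold, 3897 genes (19.5%) were higher and 4471 (22.4%) lower by the same p limit alone, and the median change over all genes was -0.07. Rises thus made up 81.4% of the genes past both limits, a share that became 90.8% with each array centred on housekeeping genes and 66.4% with centring on Gapdh. Changes of at least 4-fold were rises in 127 genes and falls in 7. The 2 Ctrl16h arrays correlated at r = 0.995 over all probe sets and the Ctrl64h arrays at 0.993 to 0.995, whereas Ctrl16h with Ctrl64h arrays correlated at 0.956 to 0.967.

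**Figure D1:**
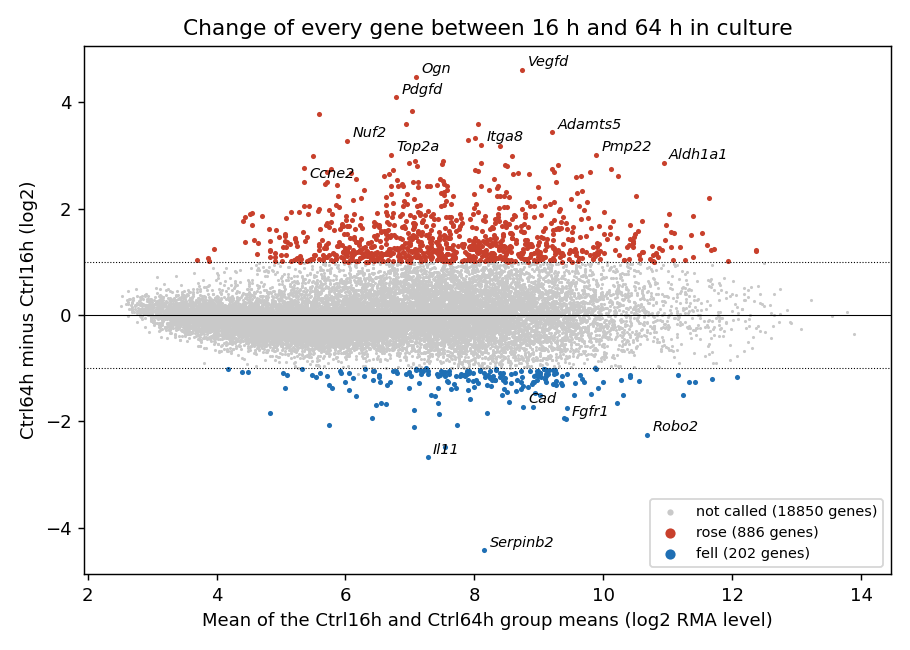
Change of each gene from Ctrl16h to Ctrl64h (vertical axis, log2) against the mean of its group means (horizontal axis, log2 RMA level); each point is a gene, dotted lines mark a 2-fold change. The 886 genes that rose reach 4.61 on the log2 scale and outnumber the 202 that fell.

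The stellate cell label was checked on marker genes. The mesenchymal genes Dcn, a collagen-binding proteoglycan, and Vim, an intermediate filament protein, had mean levels of 13.37 and 12.84 in Ctrl64h, and Pdgfrb, the receptor that drives HSC growth, one of 11.19. Among the defining markers of other liver cells, the Kupffer cell lectin Clec4f lay at 5.26 to 5.54 over the 5 arrays, the endothelial scavenger receptor Stab2 at 5.74 to 6.05, the T cell gene Cd3e at 6.07 to 6.60 and the cholangiocyte gene Epcam at 4.55 to 4.90. Hepatocyte RNA was uneven between arrays, with albumin (Alb) at 8.41 and 7.67 in Ctrl16h and at 7.37, 8.04 and 6.43 in Ctrl64h. Of 18 hepatocyte markers 1 fell (5.56%, all genes 1.01%), the apolipoprotein Apoa2, which lost its call in 5 of 20 other settings. The summed level of 20 macrophage markers (log2 of the sum of their linear values) was 10.31 and 10.24 in Ctrl16h and 11.34, 10.72 and 10.64 in Ctrl64h, highest in Ctrl64h replicate 1. Of these markers 2 rose, the lysozyme gene Lyz2, from 7.42 and 7.07 to 9.73, 8.97 and 8.41, and the cathepsin gene Ctss. Lyz2 rose by 1.79 (adjusted p = 0.014), and without Ctrl64h replicate 1 its change was 1.44 (adjusted p = 0.056). Of 20 endothelial markers 1 rose, the sialomucin Emcn, from 5.29 and 5.49 to 6.81, 6.17 and 6.45 (1.09), which lost its call in 3 of 20 other settings. The summed level of the endothelial markers was 11.60 and 11.45 in Ctrl16h and 11.73, 11.84 and 11.58 in Ctrl64h. It exceeded the macrophage sum on every array. Of 14 lymphocyte markers 6 were lower and 0 higher by the p limit alone, against 22.4% lower and 19.5% higher over all genes. Of 16 markers of cholangiocytes, mesothelium and portal fibroblasts 2 were lower and 3 higher by that limit, and none rose or fell. Their summed level was 10.66 and 10.71 in Ctrl16h and 10.71, 10.89 and 11.04 in Ctrl64h. In bulk RNA, fewer or more cells of a type and less or more RNA per cell cannot be told apart.

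The 3 largest rises were those of Vegfd, Ogn and Pdgfd, all secreted proteins. Vegfd, a ligand for lymphatic and vascular growth, stood at 6.48 and 6.40 in Ctrl16h and at 10.91, 11.22 and 11.01 in Ctrl64h, 24.4-fold higher (4.61 ± 0.24 on the log2 scale, standard error (SE), adjusted p = 1.2e-09). Ogn, the small leucine-rich proteoglycan osteoglycin, went from 4.80 and 4.90 to 9.05, 9.40 and 9.53 (4.47 ± 0.25, adjusted p = 2.9e-09). Pdgfd, a ligand of the PDGF receptor beta, went from 4.62 and 4.86 to 8.66, 8.91 and 8.93 (4.09 ± 0.14, adjusted p = 6.8e-11). In each of these genes every Ctrl64h array lay more than 3 log2 units above both Ctrl16h arrays. The phospholipid scramblase Plscr2 rose by 3.83, the adipogenesis-linked Arxes2 by 3.77, Aard by 3.59 and Car5b, a mitochondrial carbonic anhydrase, by 3.59. Klhl13, an adaptor of a ubiquitin ligase with a role in cell division, rose by 3.33 and the myelin membrane protein gene Pmp22 by 3.01. Usp17ld (3.29) and Clca3a1 (3.18) also rose, but both belong to families with near-identical copies, which probes may not separate. Both had fallen between 4 h and 16 h, by 2.64 and 1.52, as had Ogn by 1.01. For Usp17ld no difference between 64 h and 4 h was detected (0.66, adjusted p = 0.086 by limma). Usp17ld was also the least even of the leading genes in Ctrl64h, at 8.54, 10.32 and 9.79.

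**Figure D2:**
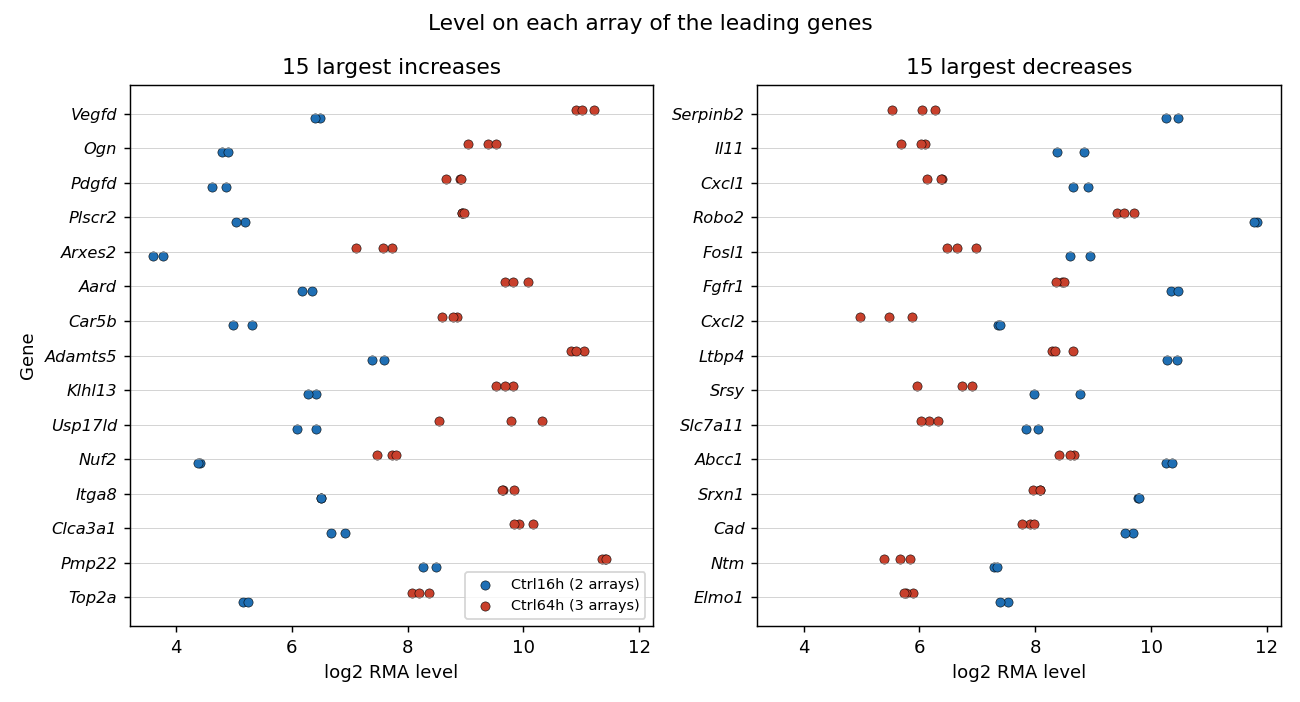
Log2 RMA level on each array (horizontal axis) of the 15 genes with the largest rise and the 15 with the largest fall (vertical axis); blue points are the 2 Ctrl16h arrays, red points the 3 Ctrl64h arrays. In all 30 genes the arrays of the groups do not overlap, which the choice of these genes required.

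Falls were fewer and smaller, with 1 exception. Serpinb2, the plasminogen activator inhibitor PAI-2, stood at 10.26 and 10.47 in Ctrl16h and at 6.27, 5.52 and 6.04 in Ctrl64h, and fell by 4.42 ± 0.46 on the log2 scale (adjusted p = 1.9e-06). Il11, a cytokine of the IL-6 family, went from 8.38 and 8.84 to 6.10, 6.02 and 5.69. Fosl1, the AP-1 subunit FRA-1, went from 8.59 and 8.95 to 6.47, 6.64 and 6.97. The groups were separate in all of them, which the choice of these genes required. Over all genes 36.5% had every Ctrl64h array below both Ctrl16h arrays, and 27.1% had every one above. Fgfr1, a receptor for fibroblast growth factors, fell by 1.96, Ltbp4, a latent TGF-beta binding protein, by 1.93, and Elmo1, an adaptor for engulfment and migration, by 1.67. Cad, the enzyme that starts pyrimidine synthesis, fell by 1.73, and Abcc1, an exporter of glutathione conjugates, by 1.75. Serpinb2 and Cad had risen between 4 h and 16 h, by 1.56 and 1.06. From 4 h to 64 h they changed by -2.86 and -0.67, the latter short of 2-fold. Srsy, of a family with near-identical copies, fell by 1.85 and cannot be assigned to a single gene.

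Whether a change belonged to the later interval was tested as the late change (16 h to 64 h) minus the early change (4 h to 16 h). Over all genes, this difference was higher in 996 (5%) and lower in 560 (2.81%) by the same limits. These counts include genes that were not called in the later interval, since an early change alone can pass. Of the 886 genes that rose late the difference was higher in 615. Among the 202 that fell late it was lower in 128. Over all 19938 genes 155 rose and 219 fell in the early interval by the same limits. Of the 886 genes that rose late 65 had fallen early and 26 had risen early. Of the 202 that fell late 6 had risen early and 17 had fallen early. The intervals are not of equal length, and the 2 Ctrl16h arrays enter both, so an error in them would widen the difference. Vegfd changed by 0.37 in the early interval, and its late change exceeded the early one by 4.23 ± 0.42 (adjusted p = 4.5e-06). Acta2 and Myc, by contrast, moved the same way in both intervals, and for neither was a difference between the intervals detected (Acta2, -0.41 ± 0.26, adjusted p = 0.29; Myc, -0.22 ± 0.27, adjusted p = 0.63).

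The gene groups below were described by the number of members that rose or fell and by their median change. These stand beside the 4.44% and 1.01% and the median of -0.07 for all genes. Counts by the p limit alone stand beside 19.5% higher and 22.4% lower over all genes. Early counts stand beside 155 genes risen and 219 fallen of 19938. Among 37 pathway groups, those with the highest share of rises were mitosis, smooth muscle contraction and DNA replication, and those with the highest share of falls were heat shock and antioxidant genes, ribosome biogenesis, and chemokines and cytokines. Of 19 genes taken from the text of the study, among them activation markers and genes of migration, 9 rose and 4 fell. Some of them were picked there on these arrays, so that count is not independent evidence of their direction.

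**Figure D3:**
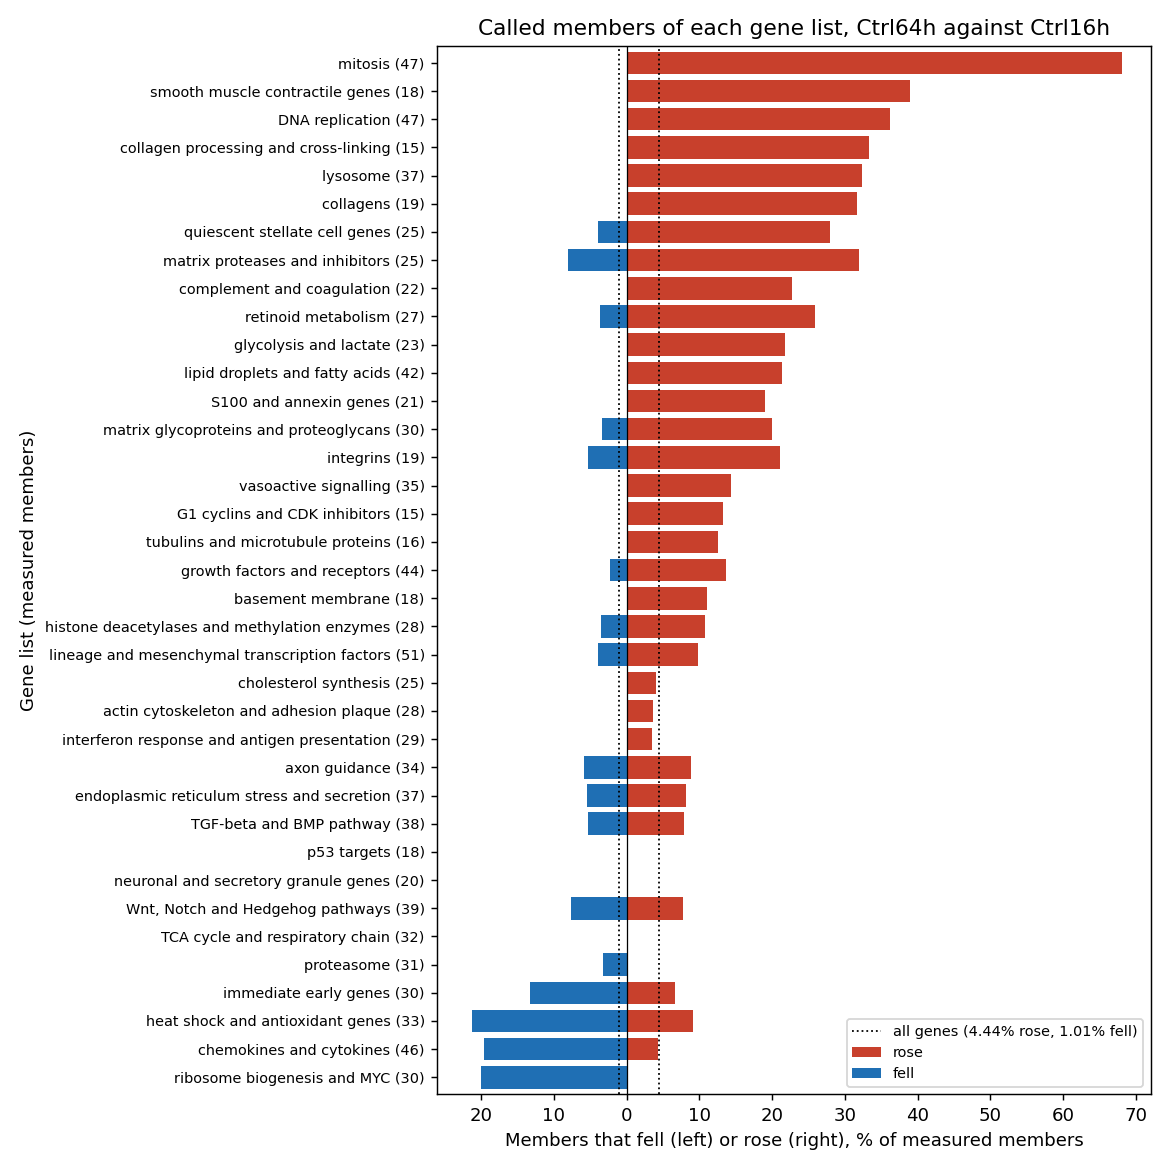
Share of measured members of each gene group that rose (right, red) or fell (left, blue) from Ctrl16h to Ctrl64h, in percent; numbers in brackets are measured members and dotted lines mark the shares over all genes, 4.44% and 1.01%. Mitosis genes reach 68.1% risen with no fall, and ribosome biogenesis genes 20% fallen with no rise.

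Mitosis genes rose together. Of 47 measured members, 32 rose (68.1%), none fell, and all 47 were higher at an adjusted p under 0.05, with a median change of 1.35. Spindle proteins and kinesins had a median of 1.86, chromosome structure genes 1.59, genes of exit and cytokinesis 1.90, and kinetochore genes 0.59. Nuf2, a kinetochore protein that binds microtubules, stood at 4.41 and 4.37 in Ctrl16h and at 7.72, 7.47 and 7.80 in Ctrl64h (3.27 ± 0.16, adjusted p = 7.8e-10). Top2a, the topoisomerase that untangles sister chromatids, went from 5.16 and 5.25 to 8.08, 8.37 and 8.19 (3.01 ± 0.10, adjusted p = 4.8e-11). A second probe set of Top2a with a lower signal changed by 0.49. Anln, which organises the cleavage furrow, rose by 2.90, and Cdk1, the kinase that starts mitosis, rose from 6.36 and 6.03 to 8.76, 8.68 and 8.80 (2.56 ± 0.14, adjusted p = 2.2e-09). Members that did not reach 2-fold included the cyclin Ccnf (0.44), the centromere histone Cenpa (0.59) and Foxm1 (0.84), a transcription factor of the G2 phase.

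Before 16 h these genes had neither risen nor fallen. Early changes were -0.29 for Nuf2, -0.31 for Top2a and -0.13 for Cdk1, and the late change exceeded the early one by 3.57 ± 0.28 (adjusted p = 5.5e-07), 3.32 ± 0.17 (1.2e-08) and 2.68 ± 0.25 (2.3e-06). At 64 h with VPA the levels were lower than in Ctrl64h by 2.02 for Nuf2 and 1.67 for Top2a, a comparison that uses the same Ctrl64h arrays.

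A smaller share of DNA replication genes rose. Of 47 measured members, 17 rose (36.2%), none fell, and the median change was 0.89. The G1/S control genes had the highest median, 1.26, with 5 of 7 risen. Ccne2, a cyclin that brings cells into S phase, stood at 4.18 and 4.05 in Ctrl16h and at 6.60, 6.50 and 6.75 in Ctrl64h (2.50 ± 0.11, adjusted p = 3.6e-10). Rrm2, a subunit of ribonucleotide reductase, rose by 2.43, as did the cyclin Ccna2. Of the replicative helicase, Mcm5 changed by 0.99 and Mcm2 by -0.28, and the polymerase clamp Pcna by 0.89. Mcm2 rose before 16 h: it was at 7.41 in Ctrl4h, at 9.05 and 9.03 in Ctrl16h and at 8.80, 8.70 and 8.76 in Ctrl64h. Its late change minus its early change was -1.91 ± 0.17 (adjusted p = 1.8e-06).

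Cyclins and kinases of G1 gave a mixed picture. Cdkn2c, an inhibitor of CDK4 and CDK6, rose from 5.80 and 6.01 to 8.01, 7.29 and 7.51, and Cdk6 itself rose by 1.19. Ccnd1, the D-type cyclin of growth factor signalling, was at 10.04 and 9.85 in Ctrl16h and at 9.33, 9.17 and 9.29 in Ctrl64h (-0.68 ± 0.12, adjusted p = 0.00025), and Cdk4 changed by -0.47. Both were below the 2-fold limit. No member of 18 measured p53 targets rose or fell, a group in which the shares over all genes would give few calls. By the p limit alone 3 of the 18 were higher and 3 lower, against 19.5% and 22.4% over all genes. Between 4 h and 16 h 6 had risen and 2 had fallen, against 155 and 219 of all 19938 genes.

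**Figure D4:**
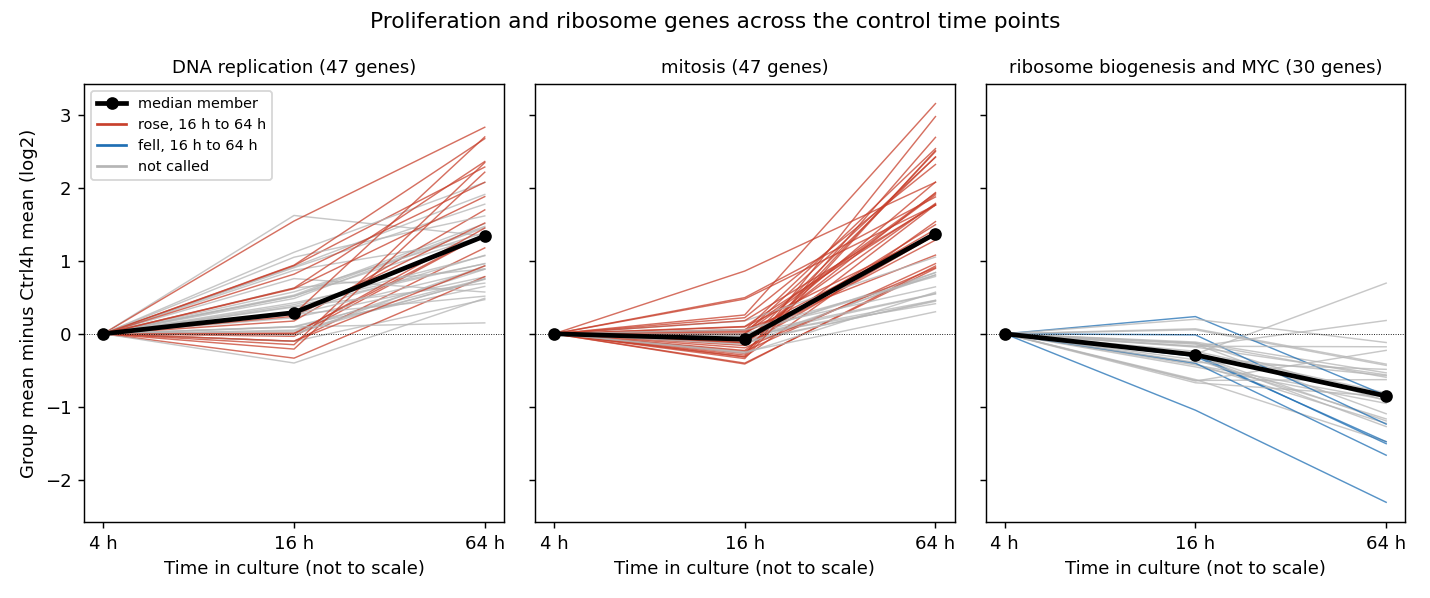
Group mean minus the Ctrl4h mean (vertical axis, log2) at 4 h, 16 h and 64 h for each measured member of DNA replication, mitosis and ribosome biogenesis with MYC; red lines rose and blue lines fell from 16 h to 64 h, grey lines were not called, and black points are the median member. Mitosis genes stay near 0 at 16 h and separate from it at 64 h, and 6 of the 30 ribosome and MYC genes fell from 16 h to 64 h.

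Promoters of the proliferation genes were read for short motifs in the 250 bases before each start site, on both strands (RefSeq, GRCm38.p6). The CHR letters TTTGAA, the element that represses mitosis genes in resting cells, were in 18 of 44 promoters of 41 mitosis genes (40.9%), against 16% of all 32851 promoters. The CCAAT box (CCAAT), which binds NF-Y, was in 32 of them (72.7%, all promoters 33.8%), and both motifs were in 36.4% (all promoters 5.55%). CCAAT was also in 52.3% of the promoters of DNA replication genes and 56.2% of those of smooth muscle genes. The E2F letters TTCCCGC were in 11 of 44 promoters of 37 DNA replication genes (25%, all promoters 3.82%) and in 0 of the 44 of mitosis genes. Matches of letters are not shown to be bound. The promoters of Cdk1, Top2a and Ccnb2 are printed because they hold both TTTGAA and CCAAT, and that of Rrm1, the large subunit of ribonucleotide reductase, because it holds the E2F letters. They were picked after their values were seen. All run 5′ to 3′ on the strand of the gene and end at the base before its start site; capitals mark TTTGAA and CCAAT, or their reverse complements, and in Rrm1 TTCCCGC and CCAAT. The marked stretches do not overlap each other.
Cdk1 promoter (chr10:69352913-69353162, minus strand): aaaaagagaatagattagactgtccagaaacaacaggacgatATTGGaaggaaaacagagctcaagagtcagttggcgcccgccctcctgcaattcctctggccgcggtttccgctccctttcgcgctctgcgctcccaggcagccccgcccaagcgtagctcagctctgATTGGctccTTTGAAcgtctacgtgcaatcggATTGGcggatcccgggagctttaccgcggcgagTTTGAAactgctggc
Top2a promoter (chr11:99024190-99024439, minus strand): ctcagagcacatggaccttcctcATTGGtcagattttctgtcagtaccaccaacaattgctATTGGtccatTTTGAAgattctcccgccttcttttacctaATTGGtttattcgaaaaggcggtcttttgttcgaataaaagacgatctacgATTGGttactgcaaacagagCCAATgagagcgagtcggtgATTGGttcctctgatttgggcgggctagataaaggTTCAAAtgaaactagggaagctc
Ccnb2 promoter (chr9:70421555-70421804, minus strand): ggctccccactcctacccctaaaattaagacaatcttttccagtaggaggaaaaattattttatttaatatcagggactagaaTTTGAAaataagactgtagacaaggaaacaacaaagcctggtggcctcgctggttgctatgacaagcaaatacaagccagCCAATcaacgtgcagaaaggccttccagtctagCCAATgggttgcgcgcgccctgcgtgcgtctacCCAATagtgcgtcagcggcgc
Rrm1 promoter (chr7:102441445-102441694, plus strand): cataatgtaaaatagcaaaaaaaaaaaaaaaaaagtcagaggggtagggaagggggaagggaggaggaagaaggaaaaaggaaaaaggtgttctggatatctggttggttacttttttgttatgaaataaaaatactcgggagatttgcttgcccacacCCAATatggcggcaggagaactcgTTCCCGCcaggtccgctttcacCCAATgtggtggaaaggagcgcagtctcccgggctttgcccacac

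Ccnb2, a B-type cyclin and partner of CDK1, stood at 5.75 and 5.83 in Ctrl16h and at 6.98, 7.16 and 7.14 in Ctrl64h. Rrm1 stood at 8.34 and 8.31 and at 10.12, 9.97 and 10.09. Ctrl64h was higher in the 2 genes, by 1.30 ± 0.13 for Ccnb2 (adjusted p = 1.4e-06) and 1.74 ± 0.11 for Rrm1 (adjusted p = 1.3e-08).

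Part of the ribosome biogenesis group fell. Of 30 measured members of the ribosome biogenesis and MYC group, 6 fell (20%), none rose, 21 were lower by the p limit alone, and the median change was -0.49; nucleolar proteins alone had a median of -0.81. Myc, the transcription factor that drives these genes, was at 10.52 and 10.75 in Ctrl16h and at 9.42, 9.32 and 9.36 in Ctrl64h, and fell by 1.26 (adjusted p = 7.8e-06). Wdr43, a processome protein, fell by 1.26 and Mybbp1a, a nucleolar MYB-binding protein, by 1.23. Nucleolin (Ncl, -0.95) and fibrillarin (Fbl, -0.96) were lower without reaching 2-fold. Mxd4, a MAX partner that opposes MYC, was higher by 0.97.

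Smooth muscle genes rose in part. Of 18 measured members 7 rose (38.9%), none fell, and the median was 0.63. Myh11, the smooth muscle myosin heavy chain, was at 7.21 and 7.11 in Ctrl16h and at 9.69, 9.62 and 9.44 in Ctrl64h. Actg2, enteric smooth muscle actin, went from 6.78 and 6.92 to 9.24, 9.04 and 9.09 (2.27 ± 0.18, adjusted p = 1.1e-07), and the tropomyosin Tpm2 rose by 2.06. Both actin and myosin arrays at 64 h lay over 2 log2 units above those at 16 h. Acta2, alpha smooth muscle actin, had already risen by 1.62 between 4 h and 16 h and went from 11.95 and 11.57 to 12.95, 12.99 and 12.97. Myl9, the regulatory light chain, also rose in both intervals, from 10.82 and 10.71 to 12.18, 12.38 and 12.36 in the late one. Myh11 had not (-0.33 before 16 h), and its late change exceeded the early one by 2.75 ± 0.33 (adjusted p = 2.3e-05). Smtn, an actin-binding smoothelin, changed by -0.46, and Srf, the serum response factor that drives smooth muscle genes, by -0.82 (10.15 and 10.17 against 9.31, 9.29 and 9.41).

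Few general actin and adhesion plaque genes were called. Of 28 measured members 1 rose, the nonmuscle myosin Myh10 (1.11), and the median was -0.16. With centring on Gapdh Myh10 was below 2-fold, and with centring on housekeeping genes 2 members rose. The other nonmuscle myosin Myh9 was at 12.41 and 12.38 in Ctrl16h and at 11.57, 11.49 and 11.58 in Ctrl64h (-0.85), and the formin Diaph1 changed by -0.86. A second probe set of Myh9 changed by -0.15.

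The CArG box, the serum response element of smooth muscle genes, was in 3 of 16 promoters of 14 smooth muscle genes (18.8%, all promoters 1.47%). They were promoters of Myl9, Cnn2 and Myl6, and no match was found in those of the risen Acta2, Tpm2 and Des. A box with letters other than those searched for would be missed, so these promoters are not shown to lack one. The shares are over the whole group, whether or not a member rose. The letters GGAATG, read by the TEAD partners of YAP, were in 7 of the 16 (43.8%, all promoters 12.6%). The promoter of Myl9 is shown as an example, with the box in capitals, and was likewise picked after the values were seen.
Myl9 promoter (chr2:156775214-156775463, plus strand): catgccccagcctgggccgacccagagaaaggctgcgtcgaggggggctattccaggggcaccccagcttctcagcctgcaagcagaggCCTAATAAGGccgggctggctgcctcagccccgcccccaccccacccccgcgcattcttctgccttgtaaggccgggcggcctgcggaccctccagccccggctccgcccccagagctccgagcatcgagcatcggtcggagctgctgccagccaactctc

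Collagens rose unequally. Of 19 measured collagens 6 rose (31.6%) and none fell, with a median of 0.19. Col3a1 was at 10.59 and 10.32 in Ctrl16h and at 12.09, 12.50 and 12.36 in Ctrl64h (1.86 ± 0.22, adjusted p = 5.4e-06). Col1a2 rose by 1.55, whereas Col1a1, the other chain of type I collagen, was at 11.38 and 11.26 and between 11.97 and 12.04 (0.69 ± 0.20, adjusted p = 0.011), below the 2-fold limit. Col8a1, a short-chain collagen of vessel walls, rose by 2.82. In the basement membrane group 2 of 18 rose, the linker Nid2 (2.68) and the collagen IV chain Col4a5 (1.24).

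Of the enzymes that cross-link collagen, most rose. Of 15 measured members of collagen processing 5 rose (33.3%), none fell, and the median was 0.92; the 4 lysyl oxidases had a median of 1.69. Lox, which cross-links collagen and elastin, was at 8.15 and 8.53 in Ctrl16h and at 11.04, 10.86 and 10.99 in Ctrl64h (2.62 ± 0.23, adjusted p = 2.4e-07). Loxl4 rose by 1.74 and Pcolce, the enhancer of procollagen cleavage, by 1.66. With arrays centred on housekeeping genes 8 members of the group rose.

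Of 30 measured matrix glycoproteins 6 rose (20%) and 1 fell, with 2 rises among 10 proteoglycans and 2 among 11 adhesive and matricellular proteins. Lum, lumican, went from a mean of 8.93 to 11.33, 11.70 and 11.59 (2.61 ± 0.14, adjusted p = 2.1e-09) and Prelp, of the same family, rose by 2.20. Both had fallen in the early interval, Lum by 1.89 and Prelp by 1.02. Ccn3, a matricellular protein, rose by 1.61. Tnc, tenascin C, had a mean of 11.96 in Ctrl16h, lay at 10.82, 10.46 and 10.84 in Ctrl64h and fell by 1.26. Fibronectin (Fn1) changed by 0.24, and the YAP and TGF-beta target Ccn2 by -0.26.

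Among matrix proteases and inhibitors, 8 of 25 rose (32%) and 2 fell. Adamts5, an aggrecanase, was at 7.59 and 7.39 in Ctrl16h and at 10.83, 11.05 and 10.90 in Ctrl64h (3.43 ± 0.14, adjusted p = 1.4e-10). The stromelysin Mmp10 rose by 2.86 and the elastase Mmp12 by 1.77, the latter from 7.33 and 7.23 to 9.66, 8.80 and 8.68 with Ctrl64h replicate 1 highest, as for the macrophage markers. Without that array Mmp12 was higher by 1.46 (adjusted p = 0.00096), and its relation to the macrophage signal was not tested. Mmp2, which degrades basement membrane collagen, changed by 0.91. Of the inhibitors, Timp3 fell by 1.21 (12.42 and 12.16 against 11.18, 11.10 and 10.97) and Timp1 changed by 0.92. Serpinb2 was the other fall, and Plaur, the urokinase receptor, changed by -0.95.

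Integrins changed in their alpha chains. Of 19 measured chains 4 rose and 1 fell, all of them alpha. Itga8, the alpha 8 chain of vascular and mesangial cells, was at 9.03 (mean) in Ctrl4h, at 6.50 and 6.51 in Ctrl16h and at 9.65, 9.85 and 9.63 in Ctrl64h. It rose by 3.20 ± 0.11 (adjusted p = 6.8e-11) after an early fall of -2.53, and the late change exceeded the early one by 5.73 ± 0.20 (adjusted p = 2.2e-10). Itga1, a collagen receptor, rose by 1.69 and Itga2 by 1.18. Itga5, the fibronectin receptor, was at 9.85 and 10.19 in Ctrl16h and at 8.84, 8.41 and 8.85 in Ctrl64h and fell by 1.32.

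Genes of the quiescent HSC went both ways. Of 25 measured members 7 rose (28%) and 1 fell, the neural adhesion gene Ntm (-1.69). By the p limit alone 9 were higher and 10 lower, and the median change was 0.00, turning to -0.13 with centring on Gapdh. Lrat, which makes retinyl esters, was at 7.23 (mean) in Ctrl4h, at 5.91 and 5.26 in Ctrl16h and at 7.54, 7.96 and 7.48 in Ctrl64h, and rose by 2.07 ± 0.22 (adjusted p = 2.3e-06). Colec10, a liver collectin, was at 10.49 (mean) in Ctrl4h, at 7.13 and 7.18 in Ctrl16h and at 8.93, 10.19 and 9.52 in Ctrl64h. Tcf21, a transcription factor of the stellate lineage, rose by 1.53 and the BMP ligand Gdf2 by 1.29. In Lrat, Colec10 and Tcf21 the 16 h level was the lowest of the 3 times, and for Colec10 the 64 h level stayed 0.94 below that of 4 h (-0.94, adjusted p = 0.0039). Other members went on down or were flat: Reln, a secreted glycoprotein of HSCs, was at 12.29 in Ctrl4h, at 11.75 and 11.48 in Ctrl16h and at 10.47, 10.75 and 10.93 in Ctrl64h (-0.90), Colec11 changed by -0.44 and Gfap, a glial filament protein, by -0.23. With centring on Gapdh 4 members of the group fell in place of 1.

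Several enzymes of vitamin A metabolism rose. Of 27 measured members of retinoid metabolism 7 rose (25.9%) and 1 fell, with the retinol dehydrogenase Rdh10 (-1.03) losing its call when arrays were centred on housekeeping genes or when Ctrl16h replicate 1 or Ctrl64h replicate 1 was left out. Dhrs3, which turns retinaldehyde back to retinol, was at 7.25 and 6.94 in Ctrl16h and at 10.15, 10.04 and 10.05 in Ctrl64h (2.99 ± 0.19, adjusted p = 9.7e-09). Aldh1a1, which makes retinoic acid, was at 9.69 and 9.32 and at 12.37, 12.39 and 12.35. Every 64 h array lay more than 2 log2 units above those at 16 h in these 2 genes. The retinoic acid receptor Rara changed by -0.68.

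**Figure D5:**
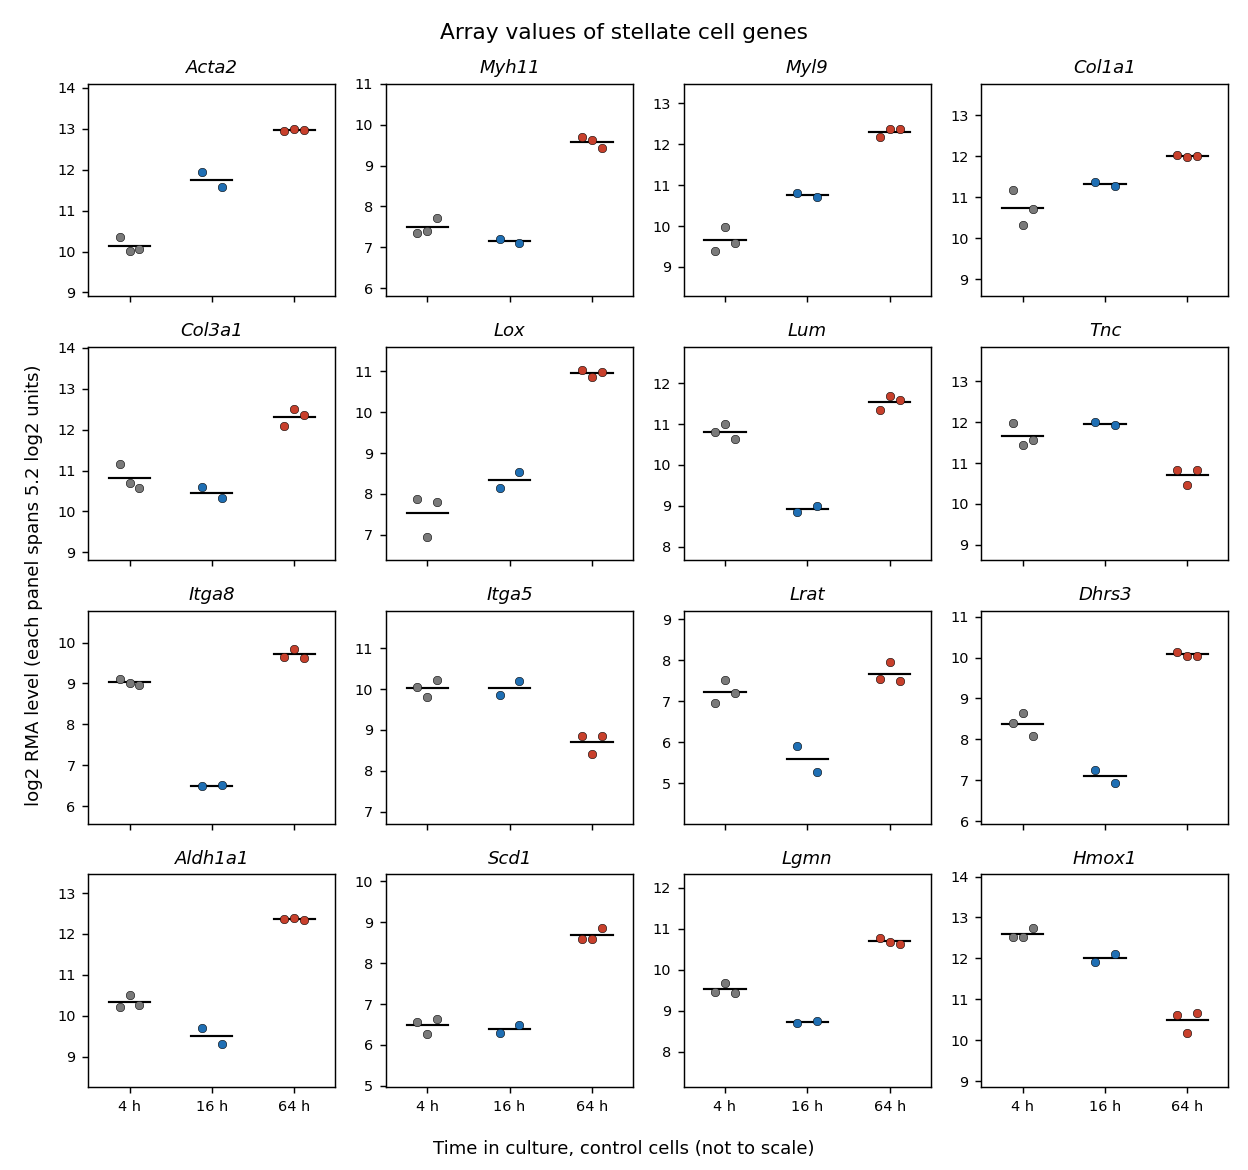
Log2 RMA level (vertical axis, each panel spans 5.2 log2 units) of 16 genes on every control array at 4 h (grey, 3 arrays), 16 h (blue, 2) and 64 h (red, 3); lines are group means. Acta2 and Myl9 climb over both intervals, Itga8, Lum, Lrat and Dhrs3 are lowest at 16 h, and Tnc, Itga5 and Hmox1 are lowest at 64 h.

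Of 42 measured genes of lipid droplets and fatty acids 9 rose (21.4%) and none fell, with 5 rises and 3 falls when arrays were centred on Gapdh. Scd1, the stearoyl-CoA desaturase, was at 6.28 and 6.48 in Ctrl16h and at 8.59, 8.60 and 8.86 in Ctrl64h (2.30 ± 0.18, adjusted p = 1.1e-07), and Scd2 rose by 1.57. Cd36, a fatty acid transporter also made by macrophages, rose by 1.65, from 4.97 and 4.86 to 7.20, 6.09 and 6.42 with Ctrl64h replicate 1 highest, and by 1.34 without that array. Fasn, the fatty acid synthase, was at 9.31 and 9.30 and at 8.41, 8.11 and 8.53 (-0.96), and Acaca, which makes malonyl-CoA, changed by -0.998, just short of the limit. A second, dimmer probe set of Acaca changed by -0.26. Of 25 cholesterol synthesis genes 1 rose (4%), the sterol isomerase Ebp (1.32), or 4 with centring on housekeeping genes. By the p limit alone 14 of the 25 were higher and 2 lower, with a median of 0.41. Between 4 h and 16 h 9 members had risen and 2 had fallen, against 155 and 219 of all 19938 genes. Srebf2, the regulator of cholesterol synthesis genes, changed by -0.76 in the late interval.

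Lysosomal hydrolases rose in part. Of 37 measured lysosome genes 12 rose (32.4%) and none fell, with a median of 0.76; of the 22 hydrolases 11 rose, with a median of 0.98, and of 5 proton pump subunits none. Centring on Gapdh left 7 rises, and omission of Ctrl64h replicate 1, the array with the highest macrophage markers, left 11. Lgmn, the asparagine endopeptidase legumain, was at 8.69 and 8.74 in Ctrl16h and at 10.77, 10.67 and 10.64 in Ctrl64h (1.98 ± 0.09, adjusted p = 7.2e-10), and the acid lipase Lipa rose by 1.62. Ppt1, a depalmitoylating thioesterase, rose by 1.43. Without Ctrl64h replicate 1 these changes were 1.94, 1.64 and 1.40. Ctss, a cathepsin of macrophages, was less stable: spread between 7.81 and 8.82 in Ctrl64h, it passed the test with all arrays (1.12, adjusted p = 0.049) and not without replicate 1 (0.82, adjusted p = 0.16), and it lost its call in 8 of 20 other settings. Cathepsin K (Ctsk) changed by -0.49.

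Of 23 glycolysis genes 5 rose (21.7%), led by Pfkfb3 (1.55), which raises the activator of phosphofructokinase, and Pfkp (1.42), the platelet-type phosphofructokinase. Pdk4, which holds pyruvate back from the mitochondrion, rose by 1.31. No member of 32 TCA cycle and respiratory chain genes rose or fell 2-fold, but by the p limit alone 20 were higher and 0 lower, with a median of 0.38 and a range from -0.20 (Atp5a1) to 0.89 (Ndufa4).

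Several antioxidant genes fell. Of 33 measured heat shock and antioxidant genes 7 fell (21.2%) and 3 rose, and of the 17 in the NRF2 and glutathione subgroup 6 fell and 2 rose, with a median of -0.48. Slc7a11, the cystine transporter that feeds glutathione synthesis, was at 8.06 and 7.84 in Ctrl16h and at 6.17, 6.02 and 6.32 in Ctrl64h, and fell by 1.78 (adjusted p = 7.9e-05). Srxn1, sulfiredoxin, went from 9.77 and 9.79 to 8.08, 7.96 and 8.09, and Hmox1, the haem oxygenase, from 11.90 and 12.10 to 10.62, 10.16 and 10.67. The groups were apart in all of them. The other falls, named after their values were seen, were Gclm and Gclc (both subunits of glutamate-cysteine ligase), Gsr, which recycles glutathione, and the transferrin receptor Tfrc. Gpx1, a glutathione peroxidase (1.86), Sod3, the extracellular superoxide dismutase (1.57), and the small heat shock protein Hspb1 (1.25) rose. Nqo1, a further NRF2 target, changed by -0.48 with an adjusted p of 0.13.

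More inflammatory genes fell than rose, and Il6 was among the rises. Of 46 chemokine and cytokine genes 9 fell (19.6%) and 2 rose. Il6 was at 7.40 (mean) in Ctrl4h, at 4.61 and 4.97 in Ctrl16h and at 6.88, 6.12 and 6.24 in Ctrl64h, and rose by 1.62 ± 0.34 (adjusted p = 0.0013) after an early change of -2.61. Cxcl13, a B cell chemokine, rose by 1.42. Of the neutrophil chemokines, Cxcl1 went from 8.65 and 8.90 to 6.39, 6.38 and 6.13 (fell by 2.47, adjusted p = 2.3e-05) and Cxcl2 fell by 1.94. Both had already fallen between 4 h and 16 h. The other falls, some named after their values were seen, were the monocyte chemokines Ccl2 and Ccl7, the T cell chemokine Ccl5, the membrane-bound Cxcl16, the alarmin Il33, the NF-kB inhibitor Tnfaip3 and Il11. Ccl5 lost its call in 10 of 20 other settings and Cxcl2 in 3. Cxcl12, the ligand of CXCR4, changed by -0.78. Among 30 immediate early genes 4 fell and 2 rose, the stress genes Ier3 (1.29) and the phosphatase Dusp1 (1.09), the latter below 2-fold with centring on Gapdh or without Ctrl16h replicate 2. Of 29 interferon response genes 1 rose, Ifit2 (1.44).

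Growth factor and BMP signals changed in a few members. Of 44 growth factor and receptor genes 6 rose (13.6%) and 1 fell. Angpt1, a TIE2 ligand of pericytes, was at 4.12 and 3.90 in Ctrl16h and at 6.84, 7.33 and 6.81 in Ctrl64h (2.99 ± 0.17, adjusted p = 3.2e-09), and its relative Angpt2 changed by 0.99. Igfbp3, which binds insulin-like growth factors, rose by 1.93, from 9.10 and 8.98 to 10.78, 11.46 and 10.67. The PDGF receptors Pdgfrb and Pdgfra changed by -0.22 and -0.25. Of 38 TGF-beta and BMP genes 3 rose and 2 fell. Bmp4 rose from 7.89 and 7.68 to 10.11, 10.31 and 10.14 (2.40 ± 0.15, adjusted p = 6.2e-09) and Id3, a target of BMP signals, by 2.06, whereas Bmp2 fell by 1.43. Tgfb1 changed by -0.31 and the activin chain Inhba by -0.95.

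Vasoactive genes held 5 rises and no fall among 35 measured members (14.3%). Rgs4, which ends G protein signals, was at 6.39 and 6.22 in Ctrl16h and at 8.85, 8.83 and 8.61 in Ctrl64h (2.46 ± 0.20, adjusted p = 1.6e-07). Prkg1, the cGMP-dependent kinase of relaxation, rose by 2.42 and Agtr1a, the angiotensin receptor that HSCs use to contract, by 1.80, from 8.89 and 8.62 to 10.60, 10.56 and 10.51. With centring on Gapdh 3 members of the group fell. Of 22 complement and coagulation genes 5 rose (22.7%), or 3 with centring on Gapdh, among them Cd59a (2.56), an inhibitor of the complement pore, and the thrombin receptor F2r (1.89).

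Guidance and developmental pathways went both ways. Of 34 axon guidance genes 3 rose and 2 fell. The ephrin receptor Epha3 rose by 2.44 and the semaphorin and VEGF co-receptor Nrp1 by 1.62, while the slit receptor Robo2 fell from 11.82 and 11.78 to 9.41, 9.54 and 9.71 and Plxnd1, a semaphorin receptor, fell as well. Of 39 Wnt, Notch and Hedgehog genes 3 rose, among them the secreted Dkk3 (1.75) and the Notch target Hes1 (1.19), and 3 fell, the receptor Notch2 (-1.16) and the Hedgehog genes Gli3 (-1.39) and Hhip (-1.27). Of 51 lineage and mesenchymal transcription factors 5 rose, led by Snai2 (1.74), and 2 fell, Runx1 (-1.40) and Nr1d1 (-1.04). Nr1d1, a repressor of the clock, was below 2-fold in 4 of the other settings. Among chromatin genes Ezh2, the H3K27 methyltransferase, rose by 1.33 and Hells by 1.89, and Kdm6b, an H3K27 demethylase, fell by 1.36. No histone deacetylase rose or fell among 12 measured, a group in which the shares over all genes, 4.44% and 1.01%, would give few calls. By the p limit alone 5 of the 12 were higher and 2 lower (19.5% and 22.4% over all genes), with changes from -0.88 to 0.72.

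Calcium-binding S100 proteins, microtubule and secretory genes completed the picture. S100a6 rose by 2.74 and S100a4 by 1.69, with 4 of 21 S100 and annexin genes risen, or 7 with centring on housekeeping genes. Stmn1, a microtubule destabiliser, went from 6.78 and 6.87 to 8.76, 8.61 and 8.79, and the tubulin Tuba1a rose by 1.31. Of 37 genes of the endoplasmic reticulum 3 rose by just over 2-fold (Sec23a, 1.09, Kdelr3, 1.04, Pdia6, 1.04) and none of them did so with centring on Gapdh, while the stress sensor Ern1 fell by 1.40 and Creb3l1 by 1.11. The proteasome subunit Psmd3 fell by 1.27, alone among 31, and no member of 20 neuronal and secretory granule genes rose or fell. By the p limit alone 1 of those 20 was higher and 4 were lower, against 19.5% and 22.4% over all genes.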

How the data were processed

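The deposited table holds log2 levels that the authors made by RMA, named in the submitters' processing notes beside Affymetrix Expression Console, and in the paper's methods with GeneSpring GX. RMA forces equal distributions on the arrays, so that a shift of total RNA per cell is not seen. Samples were grouped by title. Of 35557 probe sets, 23410 with at least 1 gene symbol were fitted with limma 3.58.1 (R 4.3.3), with 5 groups, the 14 arrays sharing 1 estimate of the spread (9 residual degrees of freedom). The 12147 without a symbol were left out, and the 1621 with several symbols were fitted but not named. Where probe sets shared a symbol, the brightest over all arrays was kept, which gave 19938 genes. The Benjamini-Hochberg adjustment ran over all 23410.

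The gene lists and members were chosen with earlier results of these data known. The rule for named genes took the 15 largest rises and 15 largest falls with an established symbol and no overlap between groups, up to 6 called members per list, the 19 genes taken from the study, cell type markers, and up to 4 uncalled members per list. Genes named outside it (Cdk1, Ccnb2, Rrm1, Myl9, Gclm, Gclc, Gsr, some of the chemokines and those of the observations) were chosen after their values were seen. The test was tried on simulated data drawn for this comparison over 23410 probe sets, with 50 of them changed at each fold. By the p limit alone, without the 2-fold limit, it recovered 72% of 1.5-fold changes and 100% of 2-, 3- and 4-fold changes. Of its calls 6.53% were false. Far more genes passed the p limit in the data, so these shares do not describe the genes said to have risen or fallen. Alternatives were other centrings, the fold limit, the methods' analysis of variance, the replicate number as a block and each array left out. The number of arrays limits the precision. Promoters and miRNAs came from RefSeq tables.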

Additional observations from a re-analysis of the deposited data

How the results depend on the processing

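The counts that rose or fell stood at 886 and 202, and became 3897 and 4471 with no fold limit and 2091 and 1199 with a limit of 1.5-fold. Centring on housekeeping genes moved the median of all genes by 0.14 and left 118 falls, and centring on Gapdh moved it the other way by as much and gave 341 falls. Genes whose late change exceeded or lay below the early one (996 and 560) became 2070 and 2095 with no fold limit, 1887 and 1816 at 1.5-fold, 2751 and 117 with centring on housekeeping genes, and 1675 and 245 with centring on Gapdh. With each array left out in turn, rises ranged from 855 to 913, falls from 195 to 237, and late minus early from 904 to 1052 higher and from 543 to 610 lower; a lone Ctrl16h array then takes the spread of the other groups. The methods' analysis of variance gave 881 rises and 202 falls. The labels do not say that replicate numbers mark shared isolations. Of 26 same-numbered pairs of arrays 13 deviated together (r over 0.1, range -0.24 to 0.28). Same-numbered Ctrl64h and VPA64h arrays did so (r = 0.16, 0.16 and 0.17), whereas their different-numbered pairs gave negative r. Same-numbered Ctrl16h and Ctrl64h arrays did not (-0.07 and -0.14), but 2 arrays of a group always deviate in opposite directions. The pairing was therefore not settled, and the main fit used none. With the replicate block 919 genes rose and 217 fell. Of 155 named genes that passed, 17 lost the call in at least 1 alternative other than the fold limits and 0 changed sign. The 16 h level rests on 2 arrays.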

Other observations

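Genes of fatty acid oxidation, gathered after the values were seen and so given as a description, were mostly higher at 64 h: of 30 measured, 13 rose, 27 were higher at an adjusted p under 0.05, none fell, and the median change was 0.94. Acaa2, the thiolase that ends each turn of mitochondrial beta oxidation, rose by 2.12, Scp2, a peroxisomal thiolase and sterol carrier, by 1.65, Acadsb, a dehydrogenase of short branched acyl chains, by 1.62 and Hadhb, the beta subunit of the trifunctional protein, by 1.61. Of 19 glutathione S-transferases 4 rose, Gstt1 (2.30), Gstk1 (1.86), Gstm5 (1.84) and Gstm4 (1.43), and Gstp1 fell (-1.27). Members of the Gstm family are close in sequence, so probes may not separate them. Of 15 amino acid transporters of the Slc7a family none rose and 3 fell, Slc7a11 (-1.78), Slc7a3 (-1.52), an importer of cationic amino acids, and Slc7a5 (-1.51), an importer of large neutral ones.

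Probe sets over hairpins of the miR-17 cluster, a MYC target in other cells, fell in part. They cover 5 hairpins of chr14:115043671-115044391 (GRCm38.p6). Mir17 (-1.09), Mir20a (-1.14) and Mir19b-1 (-1.13) fell, and all 3 lost that call with centring on housekeeping genes and without Ctrl16h replicate 2, and Mir19b-1 also without Ctrl64h replicate 3. Mir18 (-0.87), Mir19a (-0.75) and the host transcript Mir17hg (-0.46) passed neither limit (adjusted p = 0.084, 0.054 and 0.057 by limma). Such probe sets read precursor RNA and do not measure the mature miRNA. Only these 5 hairpins were read, and other members of the cluster were not looked at. Their mature sequences (RefSeq), grouped by seed and with the seed (bases 2 to 8) in capitals, are printed to show which of them share a seed.
mmu-miR-17-5p: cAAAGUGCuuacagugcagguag
mmu-miR-20a-5p: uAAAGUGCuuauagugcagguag
mmu-miR-18a-5p: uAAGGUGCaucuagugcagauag
mmu-miR-19a-3p: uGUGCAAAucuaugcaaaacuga
mmu-miR-19b-3p: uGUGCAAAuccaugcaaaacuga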
